A study of Mus musculus with 4 samples.

Results

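The genes described here are *Tfe3* and 8 genes around it: its relatives *Tfeb* and *Mitf*, folliculin (*Flcn*) with its partners *Fnip1* and *Fnip2*, the Rag GTPases *Rragc* and *Rragd*, and the target gene *Gpnmb*. They are 9 of 46078 genes counted in mouse embryonic stem (ES) cells, and they were taken as a named set because the mean level of *Tfe3* was lower in small cells of both media. The gate differences of *Tfe3* given below are therefore a description of what chose the set. Wild-type ES cells grown in 2i, in which inhibitors of MEK and of GSK3 with LIF hold cells in the naive state, were sorted by forward and side scatter into a gate of small cells, set to catch the end of mitosis and G1, or were left ungated as the control. After the sort they were cultured on laminin for 6 h in either 2i or N2B27, which has no inhibitors and lets cells begin to leave the naive state, and single cells were then sequenced, so the gate describes their size at the sort and not at lysis. This gives 4 groups, small and ungated cells of each medium, which are named in that way (2i small and so on). Each group was 1 sample of 24 single cells, so no group had a replicate and no p-value is given. All 2i cells were in 1 set of deposited counts and all N2B27 cells in another, and each set is called a plate here. Medium, plate and any sequencing lane thus cannot be told apart.

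*Tfe3*, *Tfeb* and *Mitf* encode basic helix-loop-helix transcription factors of the MiT/TFE family, which bind E-box sequences and switch on genes of the lysosome and of autophagy. Folliculin, with Fnip1 or Fnip2, forms a complex at the lysosome that activates the Rag GTPases RagC and RagD, and active Rags bring Tfe3 and its relatives to the lysosome, where phosphorylation by mTORC1 keeps them in the cytoplasm. In ES cells, loss of folliculin holds Tfe3 in the nucleus and the cells resist leaving the naive state, and *Esrrb*, a naive pluripotency factor, has been reported as a Tfe3 target. RNA counts do not show where the protein is in the cell.

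Of 96 cells, 75 were kept: 12 and 22 in 2i (small and ungated) and 20 and 21 in N2B27. The kept cells held 1364155 to 4844170 gene counts each. In 10 wells, 9 of them in 2i small, ERCC spike-in RNA, an added control, gave more counts than the genes, and these wells were left out. The median spike-in share of the kept cells was higher in small cells (3.47% in 2i and 2.45% in N2B27) than in ungated cells (1.28% and 1.14%). Fewer genes were detected in small cells, with medians of 7603 and 7462.5, against 9515.5 and 8200 in ungated cells. The 2 plates carried the same 48 index pairs, no index pair was used for more than 1 cell of a plate, and no 2 cells had identical counts. The 5 ES cell markers (*Pou5f1*, *Sox2*, *Nanog*, *Zfp42* and *Esrrb*) were counted in every group, with median summed levels of 1758 and 2071 CPM (counts scaled to the gene total of the cell) in small and ungated cells of 2i and 1649 and 2487 CPM in those of N2B27. Of the markers of melanocytes, in which *Mitf* is best known, *Dct*, *Tyr* and *Tyrp1* had no count in any group, and the summed level of the 5 markers had medians of 0 to 0.155 CPM. Single cells reached 137 to 554 CPM, since *Mlana* was counted in each group (means of 13.6 to 72.7 normalised counts) and *Pmel* in all but N2B27 small (41.9 in 2i small). Of the macrophage and osteoclast markers, *Ptprc*, *Ctsk* and *Adgre1* had no count in any group. *Csf1r* had counts in both groups of N2B27 and none in 2i, and *Acp5* was counted, at means of 17.1 to 86.2 normalised counts. The medians of the sum were 0 to 3.48 CPM, and single cells reached 84.6 to 271 CPM. The sum of the 5 fibroblast markers reached at most 0.375 CPM in a cell, and that of the primitive endoderm markers had a median of 0 in each group and a maximum of 1.48 to 142 CPM. The trophoblast markers, among which *Tfap2c* is also on in ES cells, had medians of 24.1 and 80.9 CPM in small and ungated cells of 2i and 40.5 and 66.9 CPM in N2B27, with *Elf5* at 0 throughout. Single cells reached 277 to 588 CPM. *Cdx2* was counted in all groups but N2B27 ungated, at means of 24.3 and 18.4 normalised counts in small and ungated cells of 2i.

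The promoters below are shown because MiT/TFE factors bind the E-box letters CACGTG, which read the same on both strands. Each is the sequence before the first RefSeq start of the gene, on build GRCm38.p6, and all 4 genes lie on the plus strand. *Fnip1* and *Rragc* hold 1 CACGTG each, given in capitals, with its first base 75 and 112 bases before the start. *Tfe3* and *Rragd*, the other 2 genes shown, do not hold it. The windows are chrX:7762411-7762559 for *Tfe3*, chr11:54437929-54438178 for *Fnip1*, chr4:123917183-123917432 for *Rragc* and chr4:32982748-32982997 for *Rragd*, and the window of *Tfe3* stops after 149 bases, where the gene begins in GENCODE.
Tfe3: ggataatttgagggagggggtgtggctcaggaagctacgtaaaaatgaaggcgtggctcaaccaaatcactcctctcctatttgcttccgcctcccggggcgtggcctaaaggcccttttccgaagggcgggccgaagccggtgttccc
Fnip1: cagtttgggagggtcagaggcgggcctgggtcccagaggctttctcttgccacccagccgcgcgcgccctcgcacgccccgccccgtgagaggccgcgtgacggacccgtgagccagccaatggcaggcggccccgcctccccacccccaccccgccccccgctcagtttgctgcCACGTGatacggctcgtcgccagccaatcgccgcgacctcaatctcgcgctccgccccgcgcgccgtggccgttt
Rragc: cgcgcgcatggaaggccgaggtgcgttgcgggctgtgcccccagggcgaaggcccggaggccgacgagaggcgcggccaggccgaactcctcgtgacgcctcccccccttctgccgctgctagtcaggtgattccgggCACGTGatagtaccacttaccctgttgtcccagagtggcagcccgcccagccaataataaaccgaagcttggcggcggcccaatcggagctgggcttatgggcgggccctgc
Rragd: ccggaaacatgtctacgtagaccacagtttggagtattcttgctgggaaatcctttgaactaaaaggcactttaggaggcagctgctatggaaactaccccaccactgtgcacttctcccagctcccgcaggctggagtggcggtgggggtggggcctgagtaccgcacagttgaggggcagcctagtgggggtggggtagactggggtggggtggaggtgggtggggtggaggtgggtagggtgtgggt
In the 250 bases before each of their RefSeq starts, *Tfe3*, *Tfeb*, *Mitf*, *Flcn*, *Fnip2*, *Rragd* and *Gpnmb* held neither CACGTG nor the related E-box CATGTG, searched on both strands (CACATG on the other). Of 32851 promoters of this length, 6.02% held CACGTG and 12.3% held CATGTG. The longer CLEAR palindrome, which contains the E-box, was in 0.24% of them and in no member. A match of letters is not a measured binding site.

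*Tfe3* (ENSMUSG00000000134, GRCm38 chrX:7762560-7775202) was counted in most ungated cells of both media and in fewer small cells. In normalised counts, the lowest, median and highest kept cells were 0, 14.02 and 306 in 2i small, 1.38, 200.3 and 761 in 2i ungated, 0, 0.420 and 383 in N2B27 small, and 1.60, 239.8 and 817 in N2B27 ungated. The ranges of small and ungated cells overlapped in both media, and it was the middle of the distribution that lay apart. The mean was 66.4 in 2i small against 245 in 2i ungated, a log2 ratio of −1.87, with a 95% counting interval of −1.96 to −1.78. In N2B27 the means were 66.6 and 278, a log2 ratio of −2.05 (−2.13 to −1.97). The intervals of ratios given here treat pooled reads as independent counts, although reads of Smart-seq2 libraries carry no molecular identifiers. They say nothing of the spread between cells or between samples. The intervals of shares given below cover the sampling of cells and not the spread between samples. Of the genes that averaged 20 normalised counts or more over the pair of groups, 9.91% had a lower ratio than *Tfe3* in 2i and 4.45% in N2B27, and the median of all genes was −0.31 in 2i and −0.10 in N2B27.

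**Figure D1:**
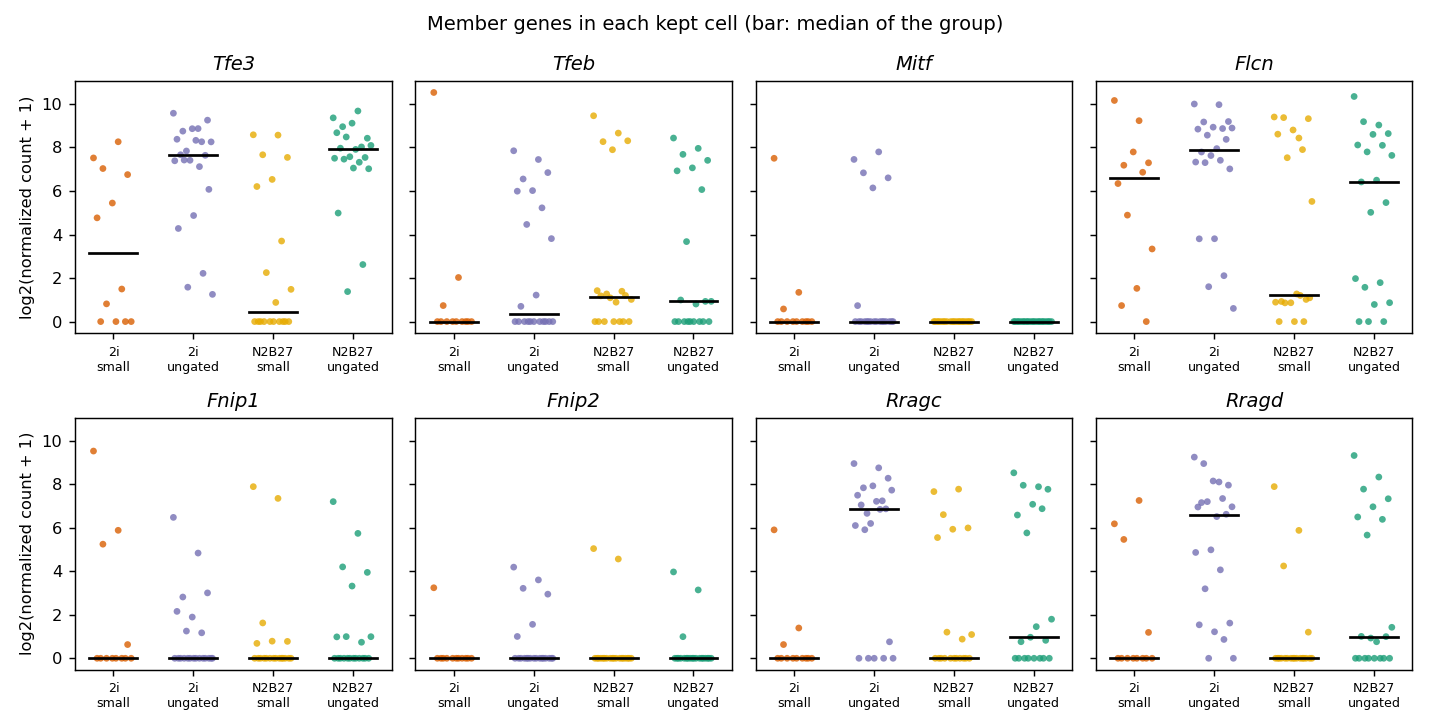
Normalised counts, as log2(count + 1), of 8 member genes in each kept cell of the 4 groups, with 1 point a cell and a bar at the group's median. *Gpnmb*, with no count, is not drawn. Most ungated cells lie high for *Tfe3*, and small cells split between high values and 0.

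A cell is called expressing here where it held at least 10 counts of the gene, since the 10 wells with little RNA gave at most 2 counts of any member other than *Fnip1*, which had 59 in 1 of them. *Tfe3* was expressed in 6 of 12 cells of 2i small (50%, exact binomial 95% interval 21.1 to 78.9%), 19 of 22 of 2i ungated (86.4%, 65.1 to 97.1%), 7 of 20 of N2B27 small (35.0%, 15.4 to 59.2%) and 19 of 21 of N2B27 ungated (90.5%, 69.6 to 98.8%). With every cell thinned to 1300000 counts, the numbers were 6, 18, 6 and 19. Of all genes, 22.4% had a share lower in small cells by at least as much in 2i, where *Tfe3* differed by −36.4 percentage points, and 0.379% in N2B27, where it differed by −55.5. In the expressing cells alone the mean normalised count of *Tfe3* was 132 in 2i small, 283 in 2i ungated, 189 in N2B27 small and 307 in N2B27 ungated, so the expressing small cells also had a lower mean.

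**Figure D2:**
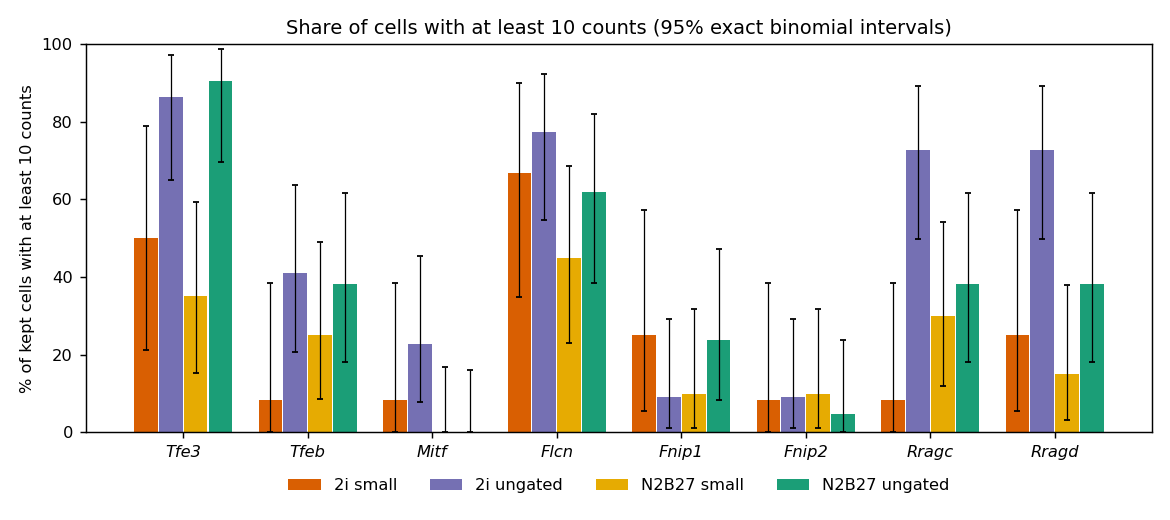
Share of kept cells with at least 10 counts of each member gene in the 4 groups, in percent, with 95% exact binomial intervals as error bars. For *Tfe3* the shares are 50% and 35.0% in small cells and 86.4% and 90.5% in ungated cells, and *Mitf* has no such cell in N2B27.

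The gate also held other phases of the cell cycle. The cyclone classifier called 6 cells G1, 5 S and 1 G2/M in 2i small, 0, 8 and 14 in 2i ungated, 6, 11 and 3 in N2B27 small, and 2, 4 and 15 in N2B27 ungated. Within S cells the mean of *Tfe3* was 128 in 2i small and 287 in 2i ungated, and 85.5 in N2B27 small and 122 in N2B27 ungated. Within G2/M cells it was 130 in the 1 cell of 2i small and 221 in 2i ungated, and 67.3 and 315 in N2B27. The log2 ratio of small to ungated cells was thus −1.16 in S cells and −0.76 in G2/M cells of 2i, and −0.50 and −2.21 in N2B27. The small-gate G1 cells had the lowest means, 4.80 over 6 cells in 2i and 31.5 over 6 cells in N2B27, while the 2 G1 cells of N2B27 ungated had 272 and 357.

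**Figure D3:**
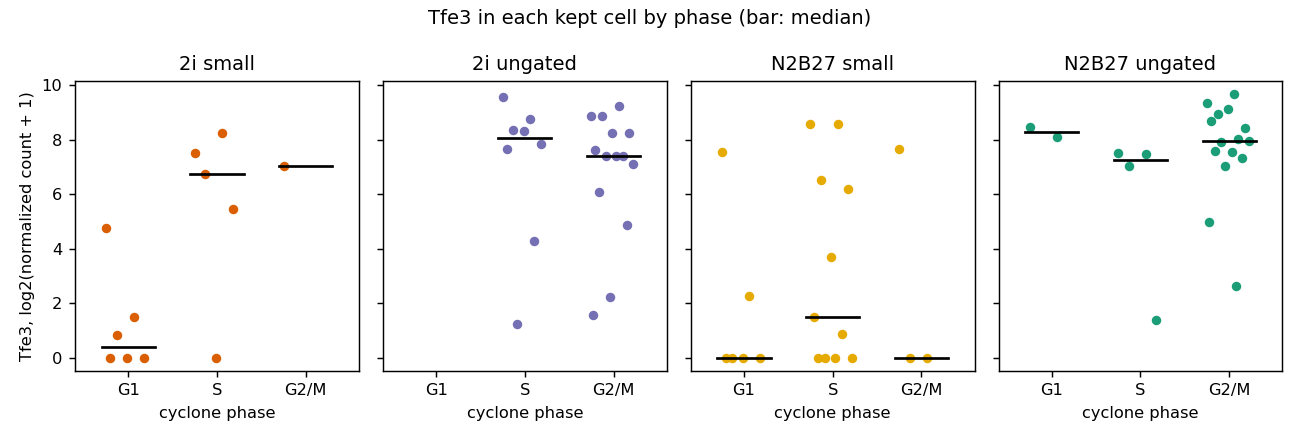
*Tfe3* as log2(normalised count + 1) in each kept cell, split by cyclone phase within each of the 4 groups, with a bar at the median. In 2i small 1 of 6 G1 cells reached 10 counts, against 4 of 5 S cells, and 2i ungated had no G1 cell.

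In the small gate, cells without *Tfe3* also held less RNA relative to the spike-ins. In 2i small, the 6 cells under 10 counts had a median spike-in share of 13.9% and a median of 5772 genes detected, against 1.76% and 8445.5 in the 6 expressing cells. In N2B27 small the 13 cells under 10 counts had 2.72% and 7010, against 1.43% and 8492 in the 7 expressing cells. In ungated cells the few cells under 10 counts lay closer to the rest: 3 cells of 2i had 1.71% and 9234 against 1.22% and 9620, and 2 cells of N2B27 had 1.14% and 7878.5 against 1.14% and 8200. The part of RNA content, phase and detection in the gate difference of *Tfe3* was not tested, and fewer transcripts in a cell and less efficient capture cannot be told apart. With size factors from the spike-ins, which keep differences in total RNA where each well received the same amount, the log2 ratio in 2i was −0.94, where the median of all genes was 0.78. All ratios of 2i small with spike-in factors include 1 cell with a spike-in share of 0.0673%, which these factors scale up the most. No ratio with spike-in factors was taken without that cell. Small cells were on index rows 502 and 503 of each plate and ungated cells on rows 510 and 511, so the gate and the index row cannot be told apart. The means of *Tfe3* on the small-gate rows were 68.5 and 63.5 in 2i and 96.1 and 30.5 in N2B27, all below the means on the ungated rows, which were 251 and 239 in 2i and 307 and 247 in N2B27.

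**Figure D4:**
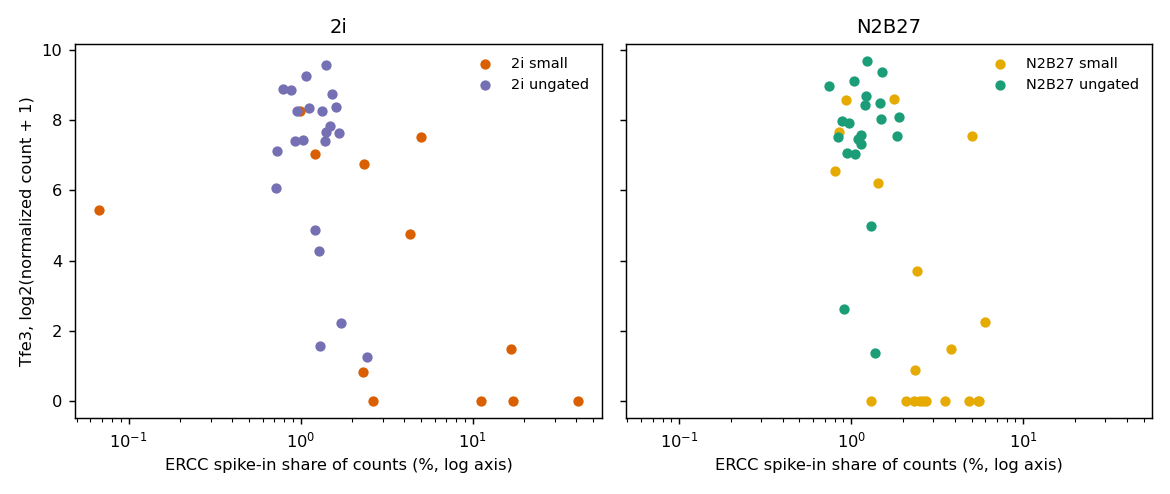
*Tfe3* as log2(normalised count + 1) against the ERCC spike-in share of each kept cell in percent, on a log axis, for 2i and N2B27, with 1 point a cell coloured by gate. The 6 cells of 2i small under 10 counts have spike-in shares of 2.30% to 40.9%.

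Of the relatives of *Tfe3*, *Tfeb* went the other way by its mean on the main size factors and the same way by its share of expressing cells. *Tfeb* (ENSMUSG00000023990, chr17:47737030-47792419) had higher means in small cells, 123 against 36.8 in 2i and 98.8 against 61.9 in N2B27, with log2 ratios of 1.72 and 0.67. In 2i, however, 98.9% of the small-gate counts came from 1 cell, which had 1474 normalised counts, and with the highest cell of each group left out the ratio was −4.42. *Tfeb* was expressed in 1 of 12 and 9 of 22 cells in 2i small and ungated and in 5 of 20 and 8 of 21 in N2B27. In N2B27 the ratio was −0.20 from means of logs, −0.07 with spike-in factors and −5.28 in G2/M cells. The mean on the main size factors was thus higher and the share lower in small cells of both media. The share differed by −32.6 percentage points in 2i and −13.1 in N2B27, where the median differences of all genes were −22.0 and −12.6. In N2B27 the lower share was thus near that of the median gene.

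*Mitf* (ENSMUSG00000035158, chr6:97807052-98021349), the melanocyte factor of the family, was counted only in 2i among the kept cells. It was expressed in 1 of 12 cells of 2i small, at 180 normalised counts, and in 5 of 22 cells of 2i ungated, at 69.7 to 221. The means were 15.2 and 30.7, a log2 ratio of −0.97, and the ratio was below 0 in 14 of 14 alternatives. In the 41 kept N2B27 cells there was no count, and 0 of 41 cells allows a share of cells with a count of up to 7.32% by the limit of 3 cells and of up to 8.60% by the exact binomial interval. Against a floor of 3 counts over the group, the difference of the means came to 120-fold in small and 247-fold in ungated cells. These folds take account of the counting of reads only, and not of which cells were sampled. The 2i means rest on 6 cells in all, 1 of them in 2i small, and 0 of 20 N2B27 small cells allows a share of up to 16.8%. Among the cells left out, 1 of N2B27 small held 12 counts. *Tfec*, the last gene of the family, had no count in any kept cell.

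*Flcn* (ENSMUSG00000032633, chr11:59791408-59810016) had the highest level per kilobase of exon among the members in every group, at 48.2 and 74.5 normalised counts per kilobase in small and ungated cells of 2i and 42.0 and 48.6 in those of N2B27. *Rragc* followed in 2i ungated at 41.4 per kilobase, then *Tfe3* at 26.4, *Rragd* at 25.2, *Tfeb* at 6.49, *Mitf* at 4.95, *Fnip1* at 0.877 and *Fnip2* at 0.252. The per-kilobase levels of *Tfe3* in the other groups were 7.17 in 2i small, 7.19 in N2B27 small and 30.0 in N2B27 ungated. *Tfe3* and *Rragd* were nearest in that order, and their cells overlapped over most of the range. The lowest, median and highest cells of *Flcn* were 0, 97.7 and 1143 normalised counts in 2i small and 0.521, 233 and 1021 in 2i ungated. In N2B27 they were 0, 1.35 and 675 in small and 0, 84.4 and 1298 in ungated cells, so the ranges overlapped throughout. The means were 208 against 322 in 2i and 182 against 210 in N2B27, with log2 ratios of −0.63 and −0.21. No direction is read from them, since in 2i the ratio was 0.32 with spike-in factors and −1.22 without the highest cells, and in N2B27 it was 0.06 with poscounts, another form of DESeq2 factors. *Flcn* was expressed in 8 of 12, 17 of 22, 9 of 20 and 13 of 21 cells.

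The folliculin partners were sparse. *Fnip1* (ENSMUSG00000035992, chr11:54438199-54518235) was expressed in 3 of 12 cells of 2i small, in 2 of 22 of its ungated control, and in 2 of 20 and 5 of 21 in N2B27. Its mean was 69.1 in 2i small against 6.24 in 2i ungated, a log2 ratio of 3.28, but 87.9% of the small-gate counts came from 1 cell, and within S cells the ratio was −0.64. In N2B27 its means were 20.1 and 11.6, and their average was below the level filter. *Fnip2* (ENSMUSG00000061175, chr3:79455974-79567796) had means of 0.704 to 2.73 normalised counts and passed the filter in no comparison.

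Of the Rag GTPases, *Rragc* and *Rragd*, which encode the partners that folliculin acts on, had lower means in small cells, as *Tfe3* did. *Rragc* (ENSMUSG00000028646, chr4:123917446-123936997) had a lowest cell of 0, a median of 114.7 and a highest cell of 493 normalised counts in 2i ungated, where 16 of 22 cells expressed it. In 2i small only 1 of 12 cells did, at 58.8 normalised counts, so the mean of 5.08 against 138 (log2 ratio −4.52) rests on 1 cell. That cell stood apart, with 15712 genes detected and a spike-in share of 0.0673%, and without it the ratio was −6.86. With spike-in size factors, which scale that cell up the most, the ratio was −0.31, which is within 2-fold, where the median of all genes was 0.78. In N2B27, *Rragc* had means of 34.3 and 70.0, a log2 ratio of −1.01, and 6 of 20 and 8 of 21 expressing cells. Within S cells of N2B27 the order was the other way, 62.2 in small against 0.434 in ungated cells, the latter over 4 cells. Of its exon bases, 7.9% overlap *4930535I16Rik* on the opposite strand, and Smart-seq2 reads do not tell the strands apart.

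*Rragd* (ENSMUSG00000028278, chr4:32983037-33022180) had means of 22.3 in 2i small and 131 in 2i ungated, a log2 ratio of −2.50, and of 15.6 and 80.2 in N2B27, a ratio of −2.29. It was expressed in 3 of 12 and 16 of 22 cells in 2i and in 3 of 20 and 8 of 21 in N2B27, and the highest small cells, at 151 and 236 normalised counts, lay within the range of the ungated ones. With spike-in size factors, which scale up the 2i small cell with 15712 genes, its ratio in 2i was 0.19, below the median of 0.78 for all genes. *Rraga*, which encodes the partner GTPase RagA and is no member, had a mean of 93.8 against 188 in 2i and 164 against 235 in N2B27. *Rragb*, for RagB, had 17.2 against 20.4 and 0.801 against 12.5.

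*Gpnmb* (ENSMUSG00000029816, chr6:49036546-49070929), a lysosomal glycoprotein gene that often serves as a readout of MiT/TFE activity, had no count in any of the 96 cells. Over the 75 kept cells this allows a share of cells with a count of up to 4.0% by the limit of 3 cells and of up to 4.80% by the exact binomial interval. *Esrrb* was counted in all groups, at means of 149 and 181 in 2i small and ungated and 165 and 180 in N2B27, log2 ratios of −0.27 and −0.12. In the small gate, *Esrrb* was expressed in 6 of 6 cells with *Tfe3* and 1 of 6 without it in 2i, and in 6 of 7 and 6 of 13 in N2B27. In ungated cells it was in 18 of 19 and 2 of 3 in 2i and in 14 of 19 and 2 of 2 in N2B27. The small cells without *Tfe3* also had fewer genes detected, with medians of 5772 against 8445.5 in 2i and 7010 against 8492 in N2B27. A link between *Esrrb* and *Tfe3* was not tested.

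**Figure D5:**
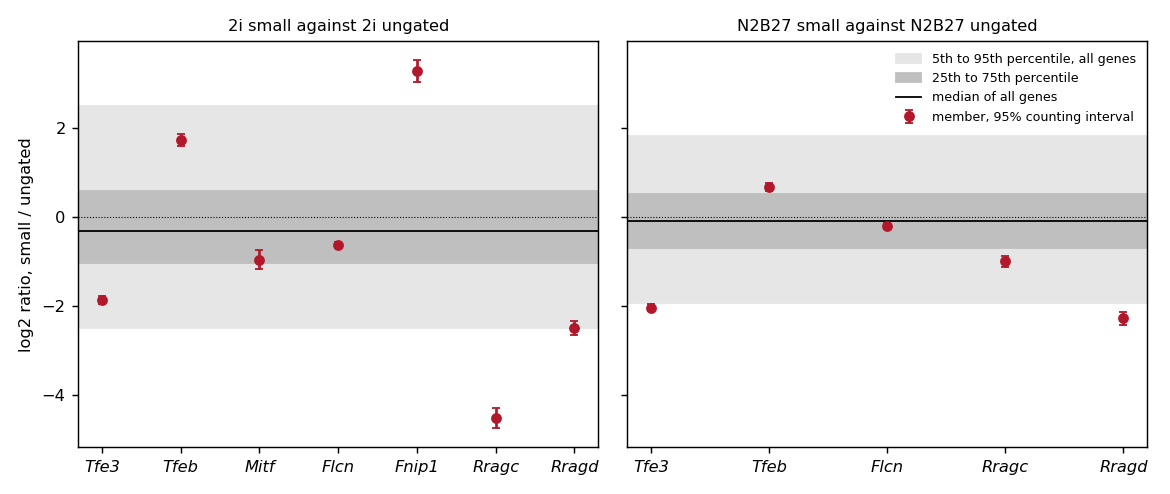
Log2 ratio of small to ungated cells for the members with a mean of at least 20 normalised counts in 2i and in N2B27, with 95% counting intervals, over grey bands for the 5th to 95th and 25th to 75th percentiles of all genes and a line at their median. On these size factors *Tfe3*, *Rragc* and *Rragd* lie below 0 in both media, and *Fnip1* and *Tfeb* lie above it in 2i, where *Rragd* was 0.19 with spike-in factors and *Tfeb* −1.51.

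Among the 7 members that passed the level filter in 2i, 3 (*Tfe3*, *Rragc* and *Rragd*) had means lower in small cells by at least 2-fold, where 26.0% of the 8541 genes did, and 2 (*Tfeb* and *Fnip1*) were higher by at least 2-fold, where 17.6% did. Among the 5 that passed in N2B27, the same 3 genes were lower, where 16.4% of 8704 genes were, and none was higher, where 12.8% were. *Rragc*, at −1.01, was at the limit and reached 2-fold lower in 4 of 12 alternatives. With CPM 2 members were lower. The median log2 ratio of the members that passed was −0.97 in 2i and −1.01 in N2B27. Since the set was chosen from this contrast, these counts describe the set and are not read against the background. The 2 media are different samples and share no cell. By the share of expressing cells, 4 of the 7 members in 2i (*Tfe3*, *Tfeb*, *Rragc* and *Rragd*) were lower by 25 percentage points or more in small cells, where 46.3% of genes were, and none was higher by as much, where 0.621% were. In N2B27, 1 of 5 (*Tfe3*) was lower by this measure, where 23.6% of genes were, and none was higher, where 0.517% were. Leaving out the highest cell of each gene in each group gave 6 lower and 1 higher of 7 members in 2i. The median of all genes moved there from −0.31 to −0.82. The shares of all genes past 2-fold were taken only with the main size factors and all kept cells, so this count has no background beside it.

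Between media, N2B27 against 2i, 4 members passed the filter in small cells. *Fnip1* was lower by a log2 ratio of −1.73 and no other member that passed was beyond 2-fold, where 19.2% of 8455 genes were lower and 22.1% were higher. That ratio rests on 1 cell of 2i small, and with the highest cell of each gene left out it was 0.010 and the members past 2-fold were 0 lower and 1 higher. *Tfe3* had almost the same mean in both, with a ratio of 0.0035, and the ratios of *Tfeb* and *Flcn* were −0.31 and −0.20. The sign of the *Tfeb* ratio was negative in only 5 of 14 alternatives and was 5.67 without the highest cells. In ungated cells 5 members passed and none was beyond 2-fold, against 9.42% of 8682 genes lower and 8.05% higher. There the ratio was 0.18 for *Tfe3*, 0.74 for *Tfeb*, −0.61 for *Flcn*, −0.97 for *Rragc* and −0.70 for *Rragd*. By share, none of the 4 in small cells differed by 25 points or more, where 9.11% of genes were lower and 2.54% higher, and in ungated cells *Rragc* and *Rragd* were both lower in N2B27 (a difference of −34.6 points each), where 20.2% of genes were lower by 25 points or more and 0.495% higher. Since each medium was on its own plate, these ratios carry the plate as well as the medium.

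The wider pathway was described by 8 lists, of 93 genes. The genes named from each list are the 2 with the largest ratios in a gate comparison. How many cells each of these ratios rests on was not examined, and it can be 1 cell, as for *Tfeb* and *Fnip1* in 2i. Of the lysosomal and autophagy genes reported as MiT/TFE targets, 36 of 41 passed the filter in 2i, with 10 lower and 2 higher past 2-fold, where 26.0% of all genes were lower and 17.6% higher, and with a median log2 ratio of −0.61 against −0.31 for all genes. In N2B27 34 passed, with 7 lower and 3 higher, where 16.4% of all genes were lower and 12.8% higher, and the median was −0.15 against −0.10. The share of lower genes was thus near that of all genes in 2i. *Neu1*, the lysosomal sialidase, was lower in small cells of both media, at means of 11.2 against 89.8 in 2i and 9.36 against 53.7 in N2B27. *Gusb*, the lysosomal beta-glucuronidase, had 5.80 against 39.9 in 2i, and *Uvrag*, an autophagy regulator, had 55.4 against 12.9 in N2B27.

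Upstream of the Rags are the genes for sensors of amino acids. Of 4 that passed, 3 were lower in 2i (26.0% of all genes), with a median of −1.69 against −0.31 for all genes, and 1 in N2B27 (16.4%), with −0.37 against −0.10. *Sesn1*, a sestrin that senses leucine, had means of 8.89 against 40.1 in 2i and 4.76 against 70.6 in N2B27, and *Sesn2* had 327 against 1153 in 2i. *Slc38a9*, the lysosomal arginine sensor, had 57.4 in small and 34.4 in ungated cells of N2B27.

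Of the genes of GATOR1, GATOR2 and KICSTOR, which relay those signals to the Rags, 3 of 7 were lower and 1 higher in 2i, beside 26.0% and 17.6% of all genes, and 3 of 10 were lower and 2 higher in N2B27, beside 16.4% and 12.8%. *Itfg2* of KICSTOR and *Nprl3* of GATOR1 had log2 ratios of −2.53 and −2.36 in 2i. In N2B27, 2 genes of GATOR2 lay far apart from each other, *Mios* at −4.42 and *Wdr59* at 3.82. All 5 genes of Ragulator, which anchors the Rags to the lysosome, passed. In 2i, 1 was lower and 1 higher, beside 26.0% and 17.6% of all genes. In N2B27, 1 was lower and none higher, beside 16.4% and 12.8%. *Lamtor3* had ratios of −1.01 and −1.03 in the 2 media, and *Lamtor5* had 2.45 and 0.44.

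Of the TSC, Rheb and mTORC1 genes, 2 of 7 were lower and 2 higher in 2i, beside 26.0% and 17.6% of all genes, and 3 of 8 were lower and none higher in N2B27, beside 16.4% and 12.8%. The mTORC1 subunit gene *Mlst8* and *Akt1s1*, for an inhibitor of mTORC1, had ratios of −2.34 and −1.83 in 2i. *Deptor*, for another inhibitor, and *Rptor*, for the subunit that binds substrates, had −1.14 and −1.10 in N2B27. Of the genes for 14-3-3 proteins, which hold phosphorylated Tfe3 in the cytoplasm, and for calcineurin, which removes phosphate from Tfeb, 3 of 10 were lower and 2 higher in 2i, near the 26.0% and 17.6% of all genes, and none of 9 was lower and 1 higher in N2B27, beside 16.4% and 12.8%. *Ppp3r1* and *Ywhah* had −2.35 and −1.59 in 2i, and *Ppp3ca* and *Sfn* 1.20 and −0.90 in N2B27. The last lists, of MiT/TFE factors and of the folliculin complex with the Rags, hold the members themselves. With the other DESeq2 factors (poscounts) the median of all genes moved to 0.34 in 2i and 0.33 in N2B27, and with spike-in factors to 0.78 and −0.81. The signs of the list medians moved with it in many lists, so the sign of a list median is not read here.

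Over the 75 kept cells, after each gene's log2 level was centred within its group, the genes most like *Tfe3* of 6639 compared were *Mrps35* (Spearman correlation 0.50), *Ajuba* (0.49), *Chmp6* (0.49), *Mrpl44* (0.48) and *L3mbtl2* (0.48). *Flcn* was at 0.44, above 99.7% of the genes, with other genes between it and these 5. The remaining members were lower: *Rragc* 0.21, *Tfeb* 0.11, *Fnip1* 0.07, *Rragd* −0.0031, *Fnip2* −0.09 and *Mitf* −0.19. *Tfe3* also correlated with the number of genes detected (0.33) and with the spike-in share (−0.35), which these cells share with every gene, and the cells come from 4 samples, so the values are a description.

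The cells that expressed *Tfe3* were also counted for the other genes. *Flcn* was expressed in 6 of 6 cells with *Tfe3* and 2 of 6 without it in 2i small, and in 5 of 7 and 4 of 13 in N2B27 small. In ungated cells it was expressed in 16 of 19 and 1 of 3 in 2i and in 12 of 19 and 1 of 2 in N2B27. *Rragc* was expressed with *Tfe3* in 1 of 6 cells in 2i small and 5 of 7 in N2B27 small, against 0 of 6 and 1 of 13 cells without it. *Rragd* was in 3 of 6 cells with *Tfe3* in 2i small and 1 of 7 in N2B27 small, against 0 of 6 and 2 of 13. Since small cells without *Tfe3* also had fewer genes detected, these numbers describe the cells and are not read as links between the genes.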

How the data were processed

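Single-cell Smart-seq2 libraries of 4 samples were analysed from 2 tables of raw counts per gene, deposited by the authors. According to the submitters' processing notes, the tools were Trim Galore 0.4.4, GSNAP, HTSeq and DESeq2, on GRCm38. Cells were mapped to samples through the deposited list of runs. Rows that name no gene were set aside: 92 ERCC spike-ins (median 1.10% of all counts in kept cells) and 12 other rows (median 21.7%, lowest 18.8%, highest 30.0%). Symbols were found for 45143 of 46078 identifiers. Members and lists were chosen with earlier results of these data known.

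Cells beyond 3 median absolute deviations within a plate (log gene counts and genes detected, low, or mitochondrial share, high) were left out with scater 1.30.1. Counts were divided by DESeq2 1.42.0 size factors, from 1227 genes counted in every kept cell. Log2 ratios are of mean normalised counts plus 1. Genes with a mean of at least 20 over both groups were compared, and 2-fold was the limit for a call. With 1 sample a group there was no test. Intervals (95%) are exact Poisson or conditional binomial for counts and Clopper-Pearson for shares of cells, and a count of 0 was also given the limit of 3. Phases came from cyclone (scran 1.30.0, R 4.3.3). The ratio was checked on simulated counts with the same relative spread for every gene. That check does not cover genes with most of their counts in 1 cell. All 9 members are named; in each list and gate comparison, the 2 genes with the largest ratios; the 5 genes most like *Tfe3* by Spearman correlation, among those at a mean of at least 20 and counted in at least 50% of cells; and *Esrrb*. Genes beyond these (*Rraga*, *Rragb*, *Tfec*) were added after their values were seen. Lengths and coordinates are from GENCODE M21, promoters from RefSeq. Alternatives were other size factors, no filter on cells or level, pooled counts, means of logs, other pseudocounts, thinning, single phases and single cells left out.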

Additional observations from a re-analysis of the deposited data

Results flagged for a closer look

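Some member genes had counts in the 21 cells that were left out of the main comparisons and used only with no filter on cells. In 10 of them spike-ins gave more counts than the genes. Others held much RNA, such as 1 of 2i small with 3589961 gene counts and a spike-in share of 3.05%. A count of 0 is thus not the background for all 21 cells. Over the 21 cells *Fnip1* had 346 counts, 282 of them in N2B27 small and 59 in 1 of the wells in which spike-ins outnumbered genes. *Rragc* had 164 counts, 159 of them in N2B27 small. *Flcn* had 22, *Mitf* 12, *Tfeb* 10 and *Fnip2* 6. At least 10 counts of a gene were reached in 2 of the cells for *Fnip1*, in 1 for *Rragc* and in 1 for *Mitf*, and the 12 counts of *Mitf* were in N2B27 small, where no kept cell had any. *Tfe3* had 2 counts in these cells, both in N2B27 ungated, and *Rragd* and *Gpnmb* had none.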

How the results depend on the processing

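The log2 ratio of *Tfe3* between gates kept its sign under every alternative run, from −3.37 to −0.76 in 2i and from −4.72 to −0.50 in N2B27. All genes moved in some of these settings. From means of logs their median was −1.39 in 2i and −0.76 in N2B27. With the highest cells left out it was −0.82 and −0.28. In 2i (main value −1.87) it was −1.60 with poscounts factors, −0.94 with spike-in factors, −2.67 with no filter on cells, −1.68 from pooled counts, −3.37 from means of logs, −2.28 with the highest cell of each group left out, −1.16 in S cells, −0.76 in G2/M cells and −1.74 without the cell with the highest spike-in share. In N2B27 (−2.05) it was −1.96 with CPM, −1.89 with poscounts, −4.72 from means of logs, −2.31 without the highest cells, −0.50 in S cells and −2.21 in G2/M cells. Between media the sign of *Tfe3* was not stable. In small cells (0.0035) the ratio was 0.29 with poscounts, −0.995 with spike-in factors, 0.76 with no filter, −0.84 from means of logs, 0.16 without the highest cells, −0.57 in S, −0.94 in G2/M and −0.12 without the cell with the highest spike-in share. In ungated cells (0.18) it was 0.57 with poscounts, 0.12 with no filter, 0.51 from means of logs, −1.23 in S and 0.51 in G2/M. Members past 2-fold between media numbered 4 with no minimum level and 2 with CPM in small cells (1), and 1 with no minimum, 1 with poscounts and 2 without the highest cells in ungated cells (0).

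Some members turned direction. In 2i, *Tfeb* was −1.51 with spike-in factors, −1.44 from means of logs, −4.42 without the highest cells, −4.97 in S and −4.81 in G2/M; *Rragd* was 0.19 with spike-in factors; and *Fnip1* was −0.64 in S and −1.93 in G2/M. In N2B27, *Rragc* was 5.46 in S cells. Between small cells of the 2 media, *Fnip2* was −3.30 and *Rragc* −1.75 with spike-in factors, and *Fnip1* was 0.010 without the highest cells and 6.32 in G2/M. Members within 2-fold also changed sign. In 2i, *Flcn* was 0.32 with spike-in factors and 0.020 in S cells; in N2B27 it was 0.06 with poscounts and 0.14 in S cells, and *Tfeb* was −5.28 in G2/M, −0.20 from means of logs and −0.07 with spike-in factors. Between small cells of the media, *Tfeb* (−0.31) ran from −0.66 to 5.76, below 0 in 5 of 14 alternatives, and *Flcn* (−0.20) from −1.38 to 0.33. The cause was not tested. With CPM, N2B27 had 2 members lower and none higher between gates, and with poscounts 2 lower and 1 higher, in place of 3 and 0. The shares of all genes past 2-fold were not taken under the alternatives. No paired analysis was possible because each group was 1 sample, and no replicate could be left out for the same reason. Leaving out the cell with the most genes (and, for the counts of members, the cell with the highest spike-in share) and the limit of 10 counts were chosen after seeing the data. The 12 to 22 kept cells of a group limit the precision of every share.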
